A study of Mus musculus with 6 samples.

Results

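The genes described here were the WNT ligands, their receptors, the secreted antagonists, the Dishevelled proteins and the core cytoplasmic and nuclear components. They were chosen by gene symbol in the platform annotation, with 1 probe set per gene, the brightest of those assigned to that gene alone. In all, 50 such genes were found among 12393 genes with a probe set of their own. Tcf7, which the choice by symbol also names, was not analysed here.

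WNT proteins are secreted lipid-modified ligands that bind Frizzled receptors and the co-receptors LRP5 and LRP6. Binding holds back the complex of axin, APC and glycogen synthase kinase that marks beta-catenin for destruction, and beta-catenin then joins TCF and LEF factors on DNA. Secreted antagonists of the SFRP, Dickkopf and WIF families limit the signal outside the cell, and in the developing pituitary the pathway takes part in the growth and specification of the anterior lobe.

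The tissue was pituitary of male C57BL/6J mice, 8 to 12 weeks old, under 12 hours of light and 12 hours of darkness, taken at zeitgeber time 12 (lights off). There were 3 Bmal1-/- samples (arrays 4 to 6) and 3 wild-type samples (arrays 1 to 3), each a pool of 3 mice's glands hybridised to its own Affymetrix 3' expression array. BMAL1, encoded by Arntl, is the circadian transcription factor that pairs with CLOCK, and the labels do not describe how the Bmal1-/- allele was made. The comparison asks which pituitary transcripts differ between the genotypes at this time of day. It cannot tell control by BMAL1 from indirect effects. Precision is limited by having n = 3 arrays for each genotype.

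The values were MAS5 signal intensities on a linear scale, as deposited, with no detection calls used. Across tested probe sets, Pearson's r was at least 0.980 for arrays of 1 genotype and at most 0.976 for arrays of different genotypes. Of 11 listed hormone-cell markers 10 were on the array, all were tested, none rose and 3 fell. Over all genes tested, 2.68% were called lower. The other 7 markers did not pass, and the log2 fold changes of the 10 ran from -0.66 to 0.18. Their summed intensity, which follows the brightest of them, was 55770 to 58600 on the Bmal1-/- arrays, against 61800 to 70250 on the wild-type arrays. Of 11 clock genes looked at as a check of the genotype, 5 were higher and 5 lower in Bmal1-/- glands. Nr1d2, Dbp, Nr1d1, Per3 and Per1 were lower, Npas2, Cry1, Nfil3, Clock and Arntl were higher, and Per2 did not pass. The ratio of mean intensities, Bmal1-/- over wild type, was 0.0616 for Nr1d2 and 4.13 for Cry1. Arntl itself read higher on the Bmal1-/- arrays, at 112.1, 102.0 and 127.5, against 39.6, 51.7 and 38.6 on the wild-type arrays. The labels do not say whether its probe set lies in the deleted part, so this reading checks nothing about the genotype labels.

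Differences were tested on log2(intensity + 16) with limma over the 13576 probe sets in the brightest 60%, with Benjamini-Hochberg adjustment and a threshold of 0.05. Fold changes are Bmal1-/- minus wild type on that log2 scale, which understates the change of dim genes. Of the 50 genes, 19 (38.0%) passed the filter on low values, against 64.8% of all genes. Among these 19, 1 gene was higher and 1 lower in Bmal1-/- glands, which makes 10.5% called, against 5.68% of 8033 genes tested across the array. The probe set of the higher gene, Dkk3, passed the filter through its Bmal1-/- values, so this share is not a result about the group. Over all genes 3.00% were called higher and 2.68% lower. No overlap between genotypes was seen at 4 of the 19 genes, or 21.1%, against 26.4% of all genes tested. A limma unadjusted p under 0.05 was found at 21.1% of the 19 too, against 21.5% of all genes tested. The median log2 fold change was 0.04, against 0.00 over all genes. These are descriptions of a few genes, and nothing in them was tested against the rest of the array.

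Dvl2, which encodes a Dishevelled protein, and Axin2, which encodes a scaffold of the destruction complex and is a widely used reporter of beta-catenin activity, are shown here by their promoters. They are shown because the first held the most BMAL1-type E-boxes among the promoters at hand and the second is the feedback gene of the pathway, a choice made after their values were seen. Sequences are those of RefSeq on build GRCm38.p6, from 250 bases before to 50 after the transcription start, and capitals mark each CACGTG. Promoters of 34 of the 50 genes were searched, 42 in all counting alternative starts, and Dkk3 and Wnt10a were not among them. For these genes a single chromosome was left out of the search, which was not so for the shares over all promoters. The Dvl2 promoter lies at chr11:70000342-70000641 and the Axin2 promoter at chr11:108920099-108920398, both on the plus strand.
Dvl2: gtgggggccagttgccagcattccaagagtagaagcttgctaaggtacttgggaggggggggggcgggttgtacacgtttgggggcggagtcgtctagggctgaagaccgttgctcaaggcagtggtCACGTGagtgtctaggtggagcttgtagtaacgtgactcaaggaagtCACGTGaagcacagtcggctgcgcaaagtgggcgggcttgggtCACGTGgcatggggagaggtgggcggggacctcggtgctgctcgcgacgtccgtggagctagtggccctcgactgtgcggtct
Axin2: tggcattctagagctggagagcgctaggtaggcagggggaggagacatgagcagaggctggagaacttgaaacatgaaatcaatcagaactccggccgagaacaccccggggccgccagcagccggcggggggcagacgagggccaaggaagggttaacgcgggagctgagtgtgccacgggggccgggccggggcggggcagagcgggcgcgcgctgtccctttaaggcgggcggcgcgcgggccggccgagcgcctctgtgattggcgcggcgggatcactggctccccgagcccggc

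The searched motifs were CACGTG, the E-box that BMAL1 and CLOCK bind, and AGGTCA, the core of sites of REV-ERB and ROR receptors. CTTTGAT, a site of TCF and LEF factors, was searched too. Each was searched on both strands, and none of the 42 promoters held 2 different motifs. CACGTG occurred 3 times in the Dvl2 promoter, a number reached by 0.0883% of 32851 promoters of the same length. At least 1 CACGTG was found in 5 of the 42 promoters (Dvl2, Fzd9, Lef1, Wif1 and Wnt9a) and in 7.15% of all promoters. AGGTCA was found in 2 of the 42 (Dkkl1 and Wnt16) and in 16.3% of all promoters, and CTTTGAT in 2 (Wnt11 and Wnt5b) and in 3.73%. None of the 3 motifs was in the Axin2 window. A match is a stretch of letters and says nothing of binding.

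Among the 19 ligands, Wnt10a fell. WNT10A signals through beta-catenin and is known for its part in teeth, hair and skin appendages. It read 78.6, 95.5 and 91.9 in Bmal1-/- pools, against 158.4, 159.3 and 232.3 in wild-type pools. All Bmal1-/- pools were below all wild-type pools, and wild-type replicate 3 was the highest. The means were 88.7 ± 8.90 in Bmal1-/- pools and 183.3 ± 42.4 in wild-type pools (SD, n = 3 each), a ratio of 0.484. The log2 fold change was -0.91 (SE 0.14, limma adjusted p = 0.00400). Without wild-type replicate 3 it was -0.74, still past the threshold at a limma adjusted p of 0.0159. Wnt10a has no further probe set of its own on this array.

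Wnt6 stands next to Wnt10a, with no protein-coding gene between them. WNT6 is a ligand of epithelial tissues, and its probe set was dim. It read 18.8, 15.6 and 14.0 in Bmal1-/- pools, against 14.4, 23.0 and 27.8 in wild-type pools. The genotypes overlapped, and the log2 fold change was -0.22 (95% interval -0.60 to 0.17, limma adjusted p = 0.525). Cyp27a1, a sterol hydroxylase gene 3 places before Wnt10a in gene order, fell too, by 0.82 on the log2 scale (SE 0.12, adjusted p = 0.00236 with limma). Of 24 tested genes at most 20 places from Wnt10a, a range also chosen after the values were seen, Cyp27a1 was the 1 called. That is 4.17%, near the 5.68% over all genes, and within 20 Mb of Wnt10a the share was 5.83% of 120 genes. The gene order plot sets Dkk3 and Wnt10a among their neighbours.

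Wnt7b was the last ligand above the filter. WNT7B is a ligand known from lung, brain vessels and other organs. It read 19.6, 10.6 and 15.5 in Bmal1-/- pools, against 29.4, 15 and 32.9 in wild-type pools. The genotypes overlapped, and it did not pass, with a log2 fold change of -0.40 (95% interval -0.84 to 0.03, limma adjusted p = 0.277). Its other probe set, 1420891_at, was below the filter and read the other way, at 3.9, 12.0 and 6.2 in Bmal1-/- pools, against 1.1, 2.7 and 1.8 in wild-type pools, with no overlap. In the unfiltered fit that probe set differed by 0.37 (limma unadjusted p = 0.0330, adjusted p = 0.266). The other 16 ligands, among them Wnt4, Wnt5a and Wnt11, which are known from pituitary development, had mean intensities of 0.30 to 8.20, and their highest value on any array was 19.5. Without the filter the smallest unadjusted p among these 16 was 0.0498, at Wnt1, with an adjusted p of 0.321. Wnt1 and Wnt16 did not overlap between the genotypes, with no value above 9.2 on any array.

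Of the 11 receptors 7 were above the filter, and none of these passed the test. Lrp6, the co-receptor that carries the signal to axin, read 110.4, 115.9 and 132.4 in Bmal1-/- pools, against 112.2, 98.4 and 121.4 in wild-type pools. Fzd6, a Frizzled known for planar polarity of hair, read 81.5, 95.1 and 102.6 in Bmal1-/- pools, against 75.5, 93.1 and 103.9 in wild-type pools. The genotypes overlapped for both, with log2 fold changes of 0.10 (95% interval -0.16 to 0.36) and 0.03 (-0.26 to 0.33). The other tested Frizzled receptors had log2 fold changes of -0.39 for Fzd2, -0.32 for Fzd4, 0.12 for Fzd7, 0.17 for Fzd3 and 0.24 for Fzd8, and their genotypes overlapped. Fzd1, Fzd5, Fzd9 and Lrp5 were below the filter, with mean intensities of 9.08 to 14.5.

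The 3 tested probe sets of Fzd3, a receptor known for axon guidance, did not give the same size. Its brightest had a log2 fold change of 0.17 (limma adjusted p = 0.477). Probe set 1449730_s_at read 48.3, 50.8 and 58.0 in Bmal1-/- pools, against 41.6, 30.3 and 37.7 in wild-type pools. Probe set 1421157_at read 26.1, 33.3 and 22.6 in Bmal1-/- pools, against 20.1, 14.7 and 15 in wild-type pools. Neither of these dimmer probe sets overlapped between the genotypes, but neither passed, with log2 fold changes of 0.38 and 0.41 and limma adjusted p of 0.144 and 0.170.

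Among the secreted antagonists, Dkk3 rose. Dkk3 encodes a divergent Dickkopf protein whose effect on WNT signalling differs between cell types. Its brightest probe set, 1417312_at, read 58.1, 68.7 and 70.8 in Bmal1-/- pools, against 12.0, 11 and 18.4 in wild-type pools. That probe set had the higher mean over all arrays, at 39.8 against 37.6 for 1448669_at. On the wild-type arrays alone it was the dimmer, at 13.8 against 25.1. Every Bmal1-/- pool was above every wild-type pool, by a wide margin. The means were 65.9 ± 6.81 in Bmal1-/- pools and 13.8 ± 4.02 in wild-type pools (SD, n = 3 each), a ratio of 4.77 between the mean intensities. The log2 fold change was 1.46 (SE 0.15, limma adjusted p = 0.000207). The wild-type mean lay below 17.3, the intensity equal to the dimmest mean level that entered the test. The probe set thus passed the filter, and was taken over the other, through its Bmal1-/- values. With so low a wild-type mean, the size of the fold depends on how a low signal is treated. With a pseudocount of 1 it was 2.20 and with a pseudocount of 64 it was 0.74, and the call stood in both fits.

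The other Dkk3 probe set, 1448669_at, moved the same way by less. It read 38.5, 64.1 and 47.7 in Bmal1-/- pools, against 31.1, 23.3 and 21.0 in wild-type pools. The genotypes again did not overlap, though the lowest Bmal1-/- pool was close to the highest wild-type pool. The ratio of mean intensities was 1.99 and the log2 fold change 0.67 (SE 0.17, limma adjusted p = 0.0432). Its call stood without Bmal1-/- replicate 4 and ended without any of the other 5 arrays, with a highest adjusted p of 0.173 without Bmal1-/- replicate 5, and also with no filter on low values (0.119) or no intensity trend (0.0644). Averaged over both probe sets the difference was 1.07 (SE 0.13, adjusted p = 0.00130 with limma).

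**Figure D1:**
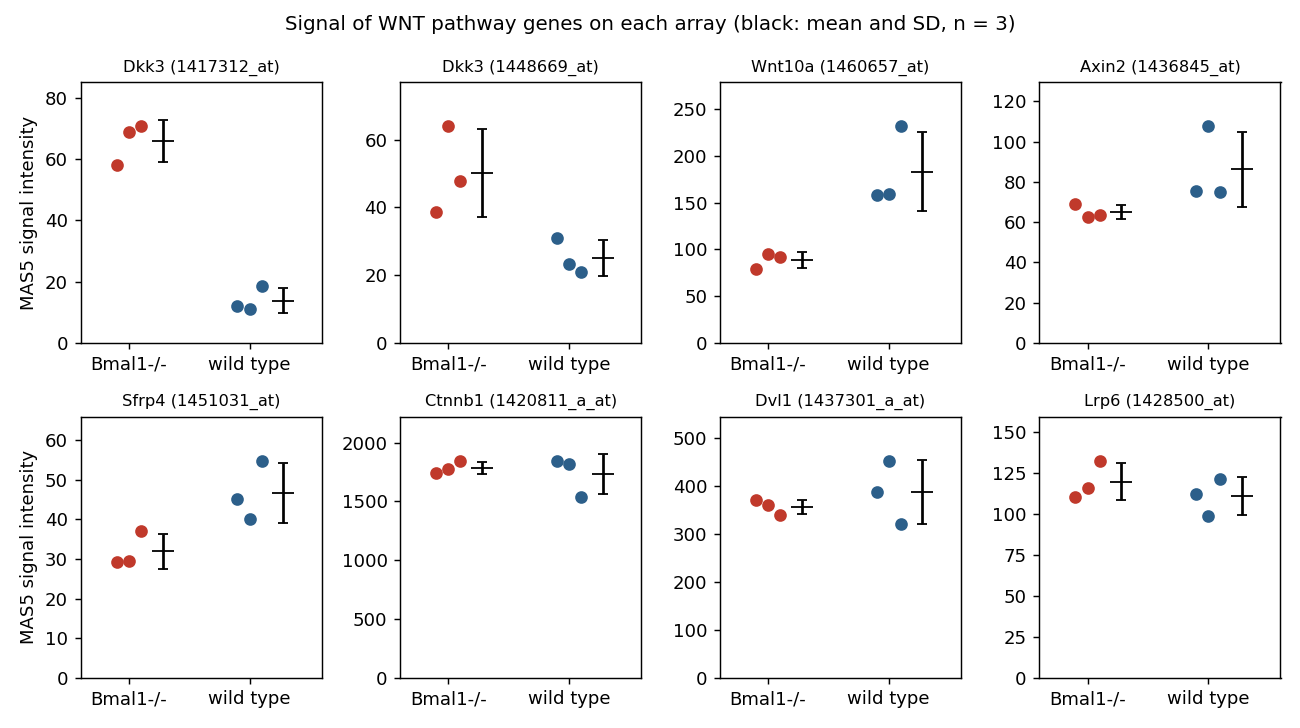
Points give the MAS5 signal intensity (vertical axis, linear, from 0) of 8 probe sets on each array, Bmal1-/- pools left and wild-type pools right in each panel, with the mean and SD of 3 pools in black. The 3 Bmal1-/- points of Dkk3 (1417312_at) sit between 58.1 and 70.8, above all wild-type points, while those of Wnt10a sit between 78.6 and 95.5, below all wild-type points.

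Dkk3 and Arntl lie on the same chromosome with 5 protein-coding genes between them, by the gene order of RefSeq. Of those 5, Mical2 and Parva were tested, with log2 fold changes of 0.09 and 0.20, and neither passed. Usp47, on the far side of Dkk3, had a log2 fold change of 0.06. Among 20 tested genes at most 20 places from Arntl on either side, 4 were called, against 5.68% of all genes tested, a range chosen after the values were seen. Dkk3 and Rnf141 (0.47) were higher, and Wee1 (-0.92) and Pik3c2a (-0.52) lower, in Bmal1-/- glands. In a wider window of 20 Mb around Arntl, 21 of 186 tested genes were called, or 11.3%, with 8 higher and 13 lower. Outside that window the share was 5.53% of 7846 tested genes. Arntl itself was left out of both ranges, while Dkk3 was counted in both. What part the location of Dkk3 has in its difference was not tested, and the location cannot be told apart from the genotype, since all Bmal1-/- pools carry the targeted region.

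**Figure D2:**
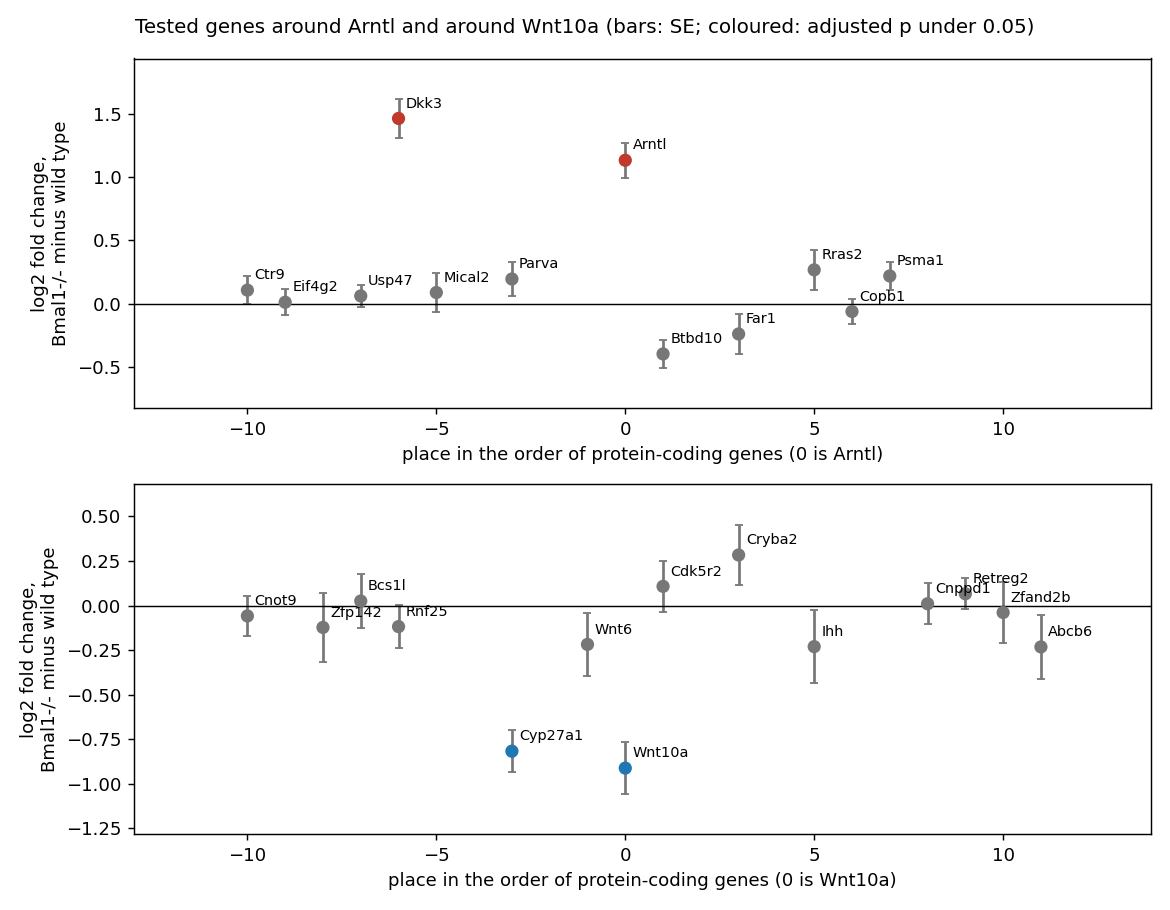
The horizontal axis gives the place of the nearest tested genes in the order of protein-coding genes, with Arntl (top) and Wnt10a (bottom) at 0. The vertical axis gives the log2 fold change, Bmal1-/- minus wild type, with SE bars. Wee1, Rnf141 and Pik3c2a, also called but farther from Arntl, lie outside the range drawn. Dkk3 at 1.46 lies above the tested genes beside it, Usp47 at 0.06 and Mical2 at 0.09, and Cyp27a1 at -0.82 lies close in value to Wnt10a at -0.91.

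Sfrp4, the other secreted antagonist that passed the filter, did not pass the test. SFRP4 is a Frizzled-related protein that binds WNT ligands in the extracellular space. It read 29.3, 29.4 and 37.1 in Bmal1-/- pools, against 45.1, 40 and 54.9 in wild-type pools. The genotypes did not overlap, and the log2 fold change was -0.38 (SE 0.15, limma unadjusted p = 0.0248, adjusted p = 0.162). Of all genes tested, 21.5% had a limma unadjusted p under 0.05. The remaining 8 antagonists (Sfrp1, Sfrp2, Sfrp5, Dkk1, Dkk2, Dkk4, Dkkl1 and Wif1) had mean intensities of 1.35 to 16.2, below the filter. Dkkl1, matched by its symbol, encodes a sperm acrosomal protein rather than a classical WNT antagonist. Without the filter, the smallest unadjusted p among these 8 was 0.134.

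Beta-catenin and its destruction complex gave no call. Ctnnb1, which encodes beta-catenin, read 1742, 1773 and 1844 in Bmal1-/- pools, against 1848, 1820 and 1541 in wild-type pools. The genotypes overlapped, and the interval of the log2 fold change was narrow, at 0.04 (95% interval -0.12 to 0.21, limma adjusted p = 0.797). Its dimmest probe set, 1430533_a_at, read 131.6, 149.6 and 179.3 in Bmal1-/- pools, against 103.6, 145.5 and 88.5 in wild-type pools. That probe set differed by 0.41 on the log2 scale (SE 0.16, adjusted p = 0.157 with limma), above the 0.12 of the remaining probe set, and it did not pass.

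Axin2 read 68.9, 62.7 and 63.5 in Bmal1-/- pools, against 75.6, 107.9 and 75.1 in wild-type pools. The Bmal1-/- pools were all below the wild-type pools, which were spread by the high value of replicate 2. The log2 fold change was -0.32 (SE 0.14, limma unadjusted p = 0.0447), and it did not pass after adjustment (adjusted p = 0.223). Without wild-type replicate 2 the value was -0.17, with a limma adjusted p of 0.494. Dvl1, a Dishevelled gene, read 370.0, 360.2 and 340.4 in Bmal1-/- pools, against 388.4, 453.4 and 320.9 in wild-type pools. Its genotypes overlapped, with a log2 fold change of -0.10 (95% interval -0.35 to 0.14). Axin1 and Apc, the other scaffolds of the complex, had log2 fold changes of 0.09 and 0.17, with overlap, and Dvl3 was below the filter with a mean intensity of 3.18.

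Dvl2, whose promoter is printed above, did not pass the test. It read 69.7, 41.5 and 52.6 in Bmal1-/- pools, against 56.6, 43.6 and 47.6 in wild-type pools. The genotypes overlapped, and the log2 fold change was 0.10 (95% interval -0.26 to 0.46, limma adjusted p = 0.787). The interval leaves room for a change of either sign. Its other probe set, 1448616_at, was below the filter, at 18.5, 10.1 and 14.2 in Bmal1-/- pools, against 9.7, 2.3 and 6.9 in wild-type pools, with no overlap. In the unfiltered fit it differed by 0.45 and did not pass (limma unadjusted p = 0.0339, adjusted p = 0.269).

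Of the nuclear factors, Tcf7l1, a mainly repressive TCF, was tested. It read 32.5, 19.2 and 29.4 in Bmal1-/- pools, against 32.6, 16 and 23.4 in wild-type pools. The genotypes overlapped, with a log2 fold change of 0.11 (95% interval -0.30 to 0.53). Tcf7l2 and Lef1 were below the filter, with mean intensities of 15.6 and 4.98. Tcf7l2 read 19.8, 8.30 and 9.80 in Bmal1-/- pools, against 17.2, 18.7 and 19.6 in wild-type pools, with overlap.

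**Figure D3:**
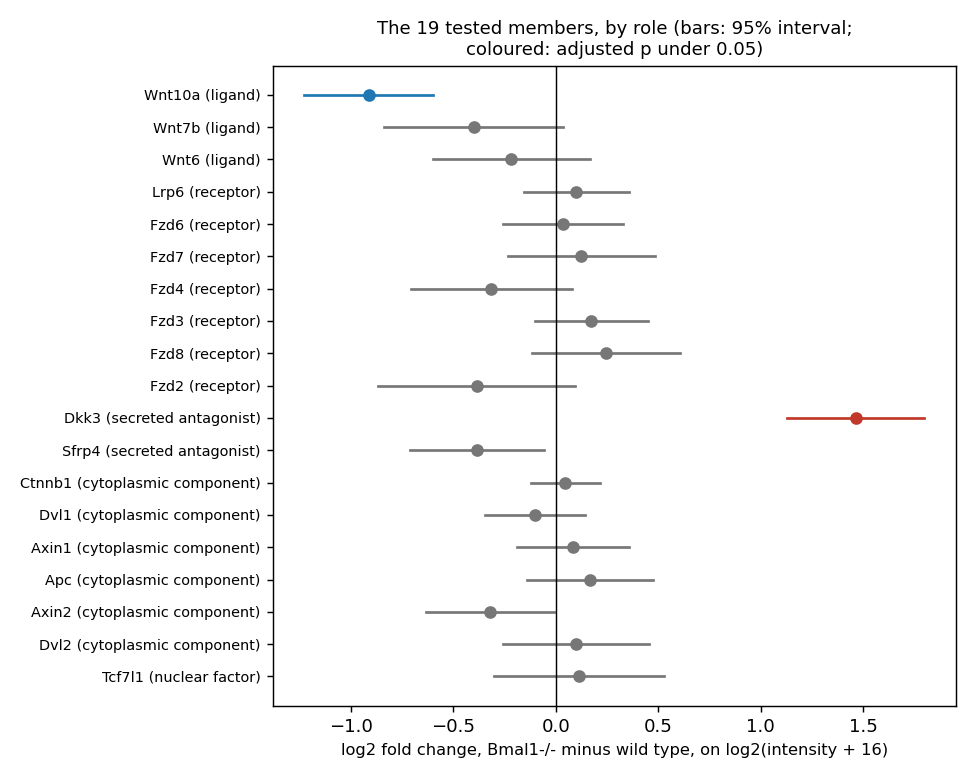
Each row is 1 of the 19 tested genes with its role, and the horizontal axis gives the log2 fold change on log2(intensity + 16), Bmal1-/- minus wild type, with its 95% interval. Wnt10a at -0.91 and Dkk3 at 1.46 are coloured as past the threshold, and the other intervals cross or come close to 0.

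Across the 50 genes, 20 had more than 1 probe set, which made 29 further probe sets, of which 11 were tested. The second Dkk3 probe set was the 1 of these 11 that passed. Of the further probe sets below the filter, those of Fzd2 (1418532_at, -0.60) and Wnt5a (1448818_at, -0.24) had no overlap and, like those of Wnt7b and Dvl2 above, did not pass in the unfiltered fit (limma adjusted p = 0.213 and 0.313). The plot of probe sets shows that those of Apc, Axin1, Dvl1, Lrp6 and Tcf7l1 lay around 0.

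**Figure D4:**
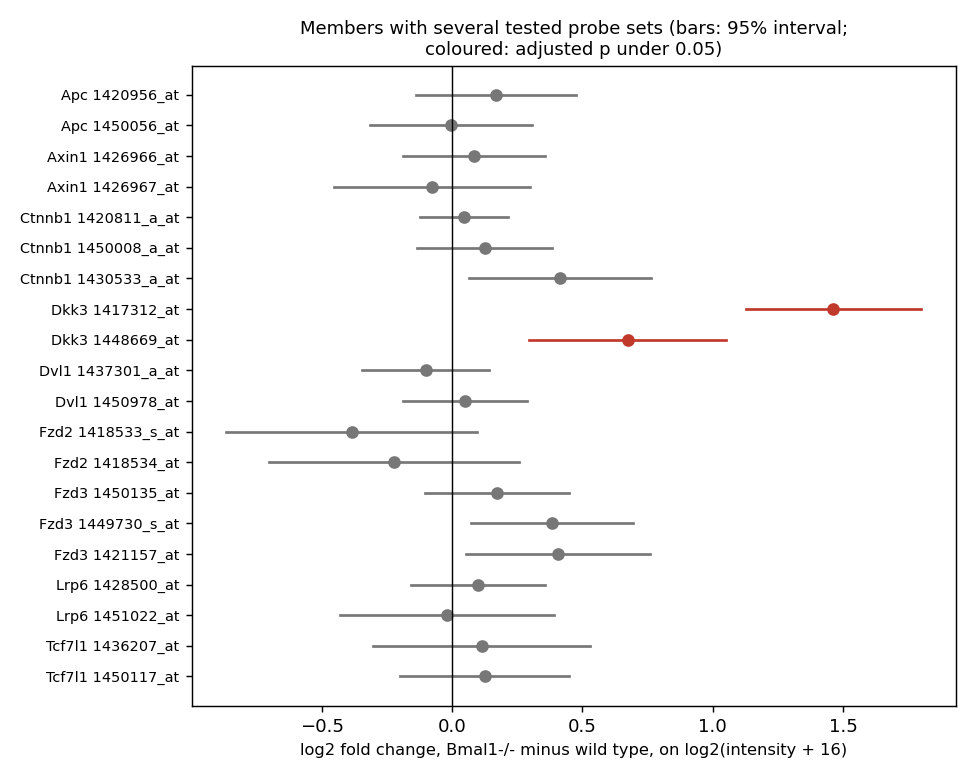
Rows are the tested probe sets of genes that have several, brightest first within a gene, and the horizontal axis gives the log2 fold change, Bmal1-/- minus wild type, with its 95% interval. Both Dkk3 probe sets (1.46 and 0.67) are coloured as past the threshold, and those of the other genes are grey.

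Other genes of the pathway were taken from lists of secretion and surface regulators, cytoplasmic and nuclear components, transcripts often induced by beta-catenin, and cadherin partners. Of 118 listed genes, 100 were on the array and 67 were tested. Of these, 6 were higher and 2 lower in Bmal1-/- glands, or 11.9% called, against the 5.68% of all genes given above. The lists were drawn up with earlier results of these data known, so this share is not a result about the pathway. Their genotypes did not overlap at 31.3%, against 26.4% over all genes, and their median log2 fold change was 0.02.

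Of 13 tested surface and secretion genes, Ryk fell and none rose. RYK is a receptor-like kinase that binds WNT ligands outside the Frizzled family. It read 43.0, 55.1 and 51.1 in Bmal1-/- pools, against 88.2, 64 and 101.6 in wild-type pools, with no overlap. The log2 fold change was -0.60 (SE 0.16, limma adjusted p = 0.0475). The call ended under 9 of 16 alternatives, among them the removal of any array but wild-type replicate 2, with a highest adjusted p of 0.168. Its other probe set was at -0.12 and did not pass. Ror2, another WNT receptor kinase, and Vangl1, of the planar polarity pathway, did not pass, at -0.49 and -0.46 (adjusted p = 0.0679 and 0.0808 with limma), nor did Tspan12, a co-receptor of the Frizzled encoded by Fzd4, at -0.43 (0.0878).

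Of 35 tested cytoplasmic and nuclear components, 4 rose and none fell. Tle4, a Groucho corepressor that sits on TCF factors, read 469.0, 527.6 and 465.6 in Bmal1-/- pools, against 370.9, 306.8 and 324.1 in wild-type pools. Tnks2, a tankyrase that marks axin for destruction, read 687.8, 725.8 and 768.8 in Bmal1-/- pools, against 460.0, 488.5 and 576.3 in wild-type pools. Neither gene overlapped between the genotypes, and on the log2 scale they differed by 0.53 (SE 0.09, adjusted p = 0.00707 with limma) and 0.51 (SE 0.09, adjusted p = 0.00825). The other tested Tle4 probe set was at 0.39 and did not pass (adjusted p = 0.123 with limma). The Tnks2 call ended without the intensity trend (adjusted p = 0.0526), and the Tle4 call stood in every alternative run.

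Nlk, a kinase that can phosphorylate TCF and LEF factors, read 340.1, 345.4 and 327.4 in Bmal1-/- pools, against 238.5, 272.9 and 259.3 in wild-type pools. Its log2 fold change was 0.38 (SE 0.09), and its other probe set also passed, at 0.50. Siah1a, a ubiquitin ligase that can target beta-catenin, read 200.1, 197.9 and 214.6 in Bmal1-/- pools, against 166.8, 139.0 and 136.1 in wild-type pools. Its log2 fold change was 0.44 (SE 0.105), with 0.15 and -0.09 at its other probe sets, which did not pass. Leaving out any 1 array but wild-type replicate 2 ended the Nlk call (highest adjusted p = 0.103, without Bmal1-/- replicate 5) and any but wild-type replicate 1 the Siah1a call (0.116, without wild-type replicate 3). Neither gene passed in the unfiltered fit (adjusted p = 0.0521 for Nlk and 0.0652 for Siah1a) or in the fit lacking the intensity trend (0.0805 for Nlk and 0.0732 for Siah1a). Averaged over its probe sets, Siah1a was at 0.17 and did not pass (adjusted p = 0.467). Tle2 at -0.46 and Tle1 at 0.28, corepressor genes like Tle4, and Tbl1x at 0.27, a corepressor exchange factor gene, did not pass (adjusted p = 0.0936, 0.119 and 0.102 with limma). The kinase gene Gsk3b, which phosphorylates beta-catenin in the destruction complex, had a log2 fold change of 0.03.

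**Figure D5:**
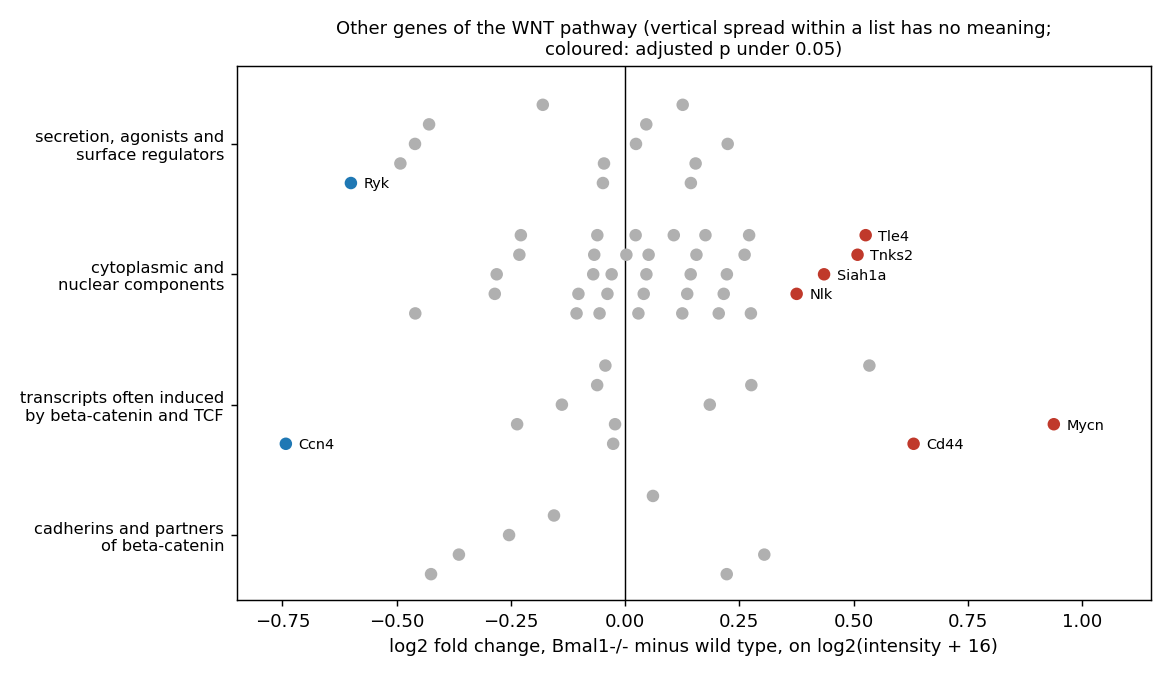
Points are the tested genes of 4 lists (rows), placed by log2 fold change, Bmal1-/- minus wild type, with no meaning to the vertical spread within a row. Coloured and named points passed the threshold: Ryk and Ccn4 lie left of 0, and Tle4, Tnks2, Siah1a, Nlk, Cd44 and Mycn lie right of it.

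Transcripts that beta-catenin is known to induce in other tissues gave calls in both directions. Of 12 tested, 2 rose, 1 fell and 9 did not pass, with a median log2 fold change of -0.02. Mycn, a growth-promoting transcription factor, read 167.9, 150.6 and 140.0 in Bmal1-/- pools, against 73.9, 74.9 and 67.1 in wild-type pools. Its pools were far apart between the genotypes, differing by 0.94 on the log2 scale (SE 0.11, adjusted p = 0.000664 with limma). Averaged with its other, dimmer probe sets it was 0.44 and did not pass (adjusted p = 0.128). Cd44, a hyaluronan receptor, read 41.3, 46.4 and 32.6 in Bmal1-/- pools, against 24.1, 20.2 and 16.2 in wild-type pools (log2 fold change 0.63, SE 0.16). Its call ended when any 1 array was left out, with a highest adjusted p of 0.157 without Bmal1-/- replicate 5, and also in the unfiltered fit (0.112).

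Ccn4, a matricellular gene known as WNT-induced, fell. It read 23.5, 27.8 and 28.9 in Bmal1-/- pools, against 60.1, 38.7 and 71.4 in wild-type pools. The log2 fold change was -0.74 (SE 0.18, limma adjusted p = 0.0323), and its other probe set also passed, at -0.66. The first probe set kept its call without wild-type replicate 2 and lost it without any of the other 5 arrays, reaching an adjusted p of 0.127 without wild-type replicate 3. Nor did it pass in the unfiltered fit (0.0983) or in the fit lacking the intensity trend (0.0543). Nearest of those that did not pass were Id2, an inhibitor of helix-loop-helix factors, at 0.53 (adjusted p = 0.0542 with limma), the cyclin gene Ccnd1 at -0.24 (0.102) and Fgf9, a growth factor gene, at 0.28 (0.389). Of the 7 tested cadherins and beta-catenin partners none passed. Ctnna1, alpha-catenin, was nearest (log2 fold change 0.30, limma adjusted p = 0.0587), with Jup, plakoglobin, at -0.42 and Ctnna2 at -0.36.

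Sfrp4, Ror2, Ccn4 and other WNT genes are often expressed by connective tissue cells, and markers of such cells were looked at beside them. Of 10 listed fibroblast and pericyte markers 8 were tested, 1 rose and 2 fell, and Dpt and Postn were below the filter. Their summed intensity was 1798 to 1833 on the Bmal1-/- arrays, against 2119 to 2234 on the wild-type arrays. Dcn, decorin, fell (log2 fold change -0.80, SE 0.09), as did the pericyte gene Rgs5 (-0.77, SE 0.08), while the collagen gene Col1a2 rose (0.30, SE 0.075). Bright genes weighed most on the sum. Mean intensities in Bmal1-/- against wild-type glands were 392.3 against 684.0 for Rgs5, 269.3 against 479.2 for Dcn and 803.6 against 650.7 for Col1a2. Of the 5 that did not pass, Col1a1 was at 0.18 and Lum at -0.36, both with no overlap. Col3a1, Pdgfra and Pdgfrb were at -0.14, -0.13 and -0.105, with overlap. In pooled whole glands, fewer cells of a type and less RNA per cell cannot be told apart, and the part of these cells in the WNT values was not tested.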

How the data were processed

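Total RNA of pooled pituitary glands (3 glands per pool, 3 pools per genotype) was labelled with biotin and hybridised to Affymetrix mouse arrays, per the labels' protocols. The deposited values are linear signal intensities, 1 for each probe set on each array, made with MAS5 per the submitters' processing notes. Because MAS5 corrects each signal by its mismatch probes, low values carry much noise. The mean intensity trimmed by 2% at each end was 100 on every array, and no scan or batch information is given in the sources used here.

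Of 22690 probe sets, 64 array controls were left out, and gene names came from the platform annotation, whose gene identifiers all matched RefSeq for the 50 genes. Values were transformed as log2(intensity + 16), and the brightest 60% of probe sets (13576) entered the fit, made in R 4.3.3 by lmFit and by eBayes with trend (limma 3.58.1). The fit was tried on simulated normal values with planted changes. Their spread depended on the mean level alone, so the trial does not cover spread that differs from gene to gene. Per gene, the brightest single-gene probe set by mean intensity was used. Nothing in the labels says more on the pools than that each holds separate glands.

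Values on all arrays are given for genes past the threshold, for those with an unadjusted p under 0.05, and for the 2 brightest of each role, and other pathway genes are named where past the threshold or among the 3 smallest p of a list. A few more were named for contrast after their values were seen. The genes and lists were chosen with earlier results of these data known. Gene order and the windows around Arntl and Wnt10a came from the RefSeq table of build GRCm38.p6.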

Additional observations from a re-analysis of the deposited data

How the results depend on the processing

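The Dkk3 and Wnt10a calls stood in all 15 and 16 alternatives in which each was tested, with log2 fold changes of 0.74 to 2.20 and of -1.02 to -0.68 and highest limma adjusted p of 0.00304 and 0.0206. With the top 40% of probe sets, 0 genes of the group were called higher, because the Dkk3 probe set fell below that filter. No other named gene of the group passed under any of these alternatives. Other pathway genes called numbered 3 higher and 3 lower when each gene's probe sets were averaged, 3 higher and 0 lower both in the unfiltered fit and in the fit lacking the intensity trend, and 1 lower both after quantile normalization and with the top 40%. Leaving out 1 array gave 3 to 6 higher and 0 to 6 lower, with 6 lower without wild-type replicate 2 and 0 lower without any of the other 5. Over all probe sets, 374 were called higher and 378 lower. This was 176 and 154 with no filter, 189 and 218 without the trend, and 161 to 417 and 144 to 522 with 1 array left out, most without wild-type replicate 2. The fits with 1 array left out have fewer arrays. Other alternatives (pseudocounts of 1 and 64, equal medians, robust eBayes, array weights) kept every count within 1.5 times. No paired analysis was possible because the genotypes share no replicate numbers. Signal near background limits the 31 genes below the filter.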

Other observations

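Lists of other cell types gave the following values, with no test of a link to the WNT genes. Of 8 macrophage markers 6 were tested and C1qa, a complement component, fell (log2 fold change -0.48, SE 0.11, limma adjusted p = 0.0280). The summed macrophage intensity was 360.9 to 412.7 on the Bmal1-/- arrays, against 504.1 to 533.5 on the wild-type arrays, with Aif1 and Cd14 below the filter. Of 8 endothelial markers, all tested, Plvap, a component of fenestrated vessels, rose (log2 fold change 0.40, SE 0.09, adjusted p = 0.0287). The other 7 did not pass, at -0.38 (Kdr) to 0.17 (Emcn). The summed endothelial intensity was 698.4 to 808.8 on the Bmal1-/- arrays, against 611.0 to 718.6 on the wild-type arrays. Plvap, the brightest of the list, weighed most on it, with means of 365.1 in Bmal1-/- and 272.8 in wild-type glands. Of 10 posterior lobe and neural markers 5 were tested, and the myelin gene Mbp rose (log2 fold change 0.52, SE 0.11, adjusted p = 0.0210). The other 4 did not pass, and the 5 had a median log2 fold change of -0.19 and a lowest of -0.57. The summed intensity of this list overlapped, at 1755 to 1870 on the Bmal1-/- arrays, against 1608 to 1927 on the wild-type arrays. Of 8 folliculostellate and stem cell markers on the array 6 were tested and none passed, with Fabp7 and S100b below the filter. Fabp7, a fatty acid binding protein gene of glia-like cells, read 32.4, 52.2 and 40.5 in Bmal1-/- pools, against 0.3, 5.4 and 0.5 in wild-type pools. In the unfiltered fit Fabp7 was higher by 1.67 on the log2 scale (limma adjusted p = 0.00339). S100b read 5.0, 0.4 and 7.0 in Bmal1-/- pools, against 11.3, 11.1 and 13.8 in wild-type pools, and did not pass in that fit (adjusted p = 0.175). Nes (-1.03, adjusted p = 0.0580 with limma) and Anxa1 (-0.58, 0.0899) had no overlap either. The summed intensity of this list was 1098 to 1185 on the Bmal1-/- arrays, against 1041 to 1218 on the wild-type arrays.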
